A study of Mus musculus with 2 samples.

Results

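The genes described here encode the 3 BCL7 proteins (Bcl7a, Bcl7b and Bcl7c) and 7 further subunits of the BAF chromatin remodelling complex (Smarca4, Smarca2, Smarcb1, Smarcc1, Smarcc2, Arid1a and Arid1b). They were measured in a mouse embryonic stem (ES) cell line, ESSP9, whose genotype label, Del1.3MbWBS, states the loss of 1.3 Mb from the segment tied to Williams-Beuren syndrome (WBS), a human developmental disorder. Members were taken as every probe set annotated with exactly 1 of these 10 symbols. This gave 25 probe sets for 10 genes, out of 34958 probe sets with 1 symbol for 18194 genes. No probe set of a member was shared with another named gene in the annotation. All 10 symbols matched the reference gene table by gene identifier.

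Total RNA was hybridised to 2 Affymetrix arrays, which the labels call biological replicates 1 and 2 of 1 group. For both, the ES cells grew over feeder cells in medium that held LIF, which keeps ES cells undifferentiated, and 20% serum replacement, so the RNA is that of the whole culture. The labels do not say whether the replicates were separate cultures, which cell type the feeders were, or whether the line was 1 clone. They also do not say which genes lie within the deletion or how many copies of the region were lost. An unedited line was not analysed here, so no value below shows an effect of the deletion, and with 1 group there is no test and no p-value. An SD given here measures the spread of 2 arrays, which may be technical.

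BAF complexes, the mammalian relatives of yeast SWI/SNF, use the energy of ATP to slide or evict nucleosomes and so open chromatin at enhancers and promoters. Many of their positions are filled by alternative products of paralogous genes, and the choice changes as cells differentiate. The form purified from mouse ES cells is built around the ATPase Brg1 (Smarca4), with the scaffold subunit Smarcc1 and the DNA-binding subunit Arid1a. Brm (Smarca2) and Smarcc2 are more typical of differentiated cells, and neurons exchange Actl6a for Actl6b. The small BCL7 proteins are stable subunits of these complexes, and Bcl7b is the family member that lies in the WBS region.

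Bcl7b lies on mouse chromosome 5 between Tbl2 and Baz1b in the reference gene table (GRCm38.p6). Promoter sequences from RefSeq on that build cover 250 bases before to 50 bases after a gene's start. Those of Bcl7b, the member in the WBS region, and of its paralogue Bcl7c are shown. Both genes were measured well above background, and both promoters are dense in CpG dinucleotides, the sites of DNA methylation. The Bcl7b sequence is chr5:135168122-135168421 on the plus strand and the Bcl7c sequence is chr7:127708717-127709016 on the minus strand, each written 5′ to 3′ with every CpG in capitals.
Bcl7b: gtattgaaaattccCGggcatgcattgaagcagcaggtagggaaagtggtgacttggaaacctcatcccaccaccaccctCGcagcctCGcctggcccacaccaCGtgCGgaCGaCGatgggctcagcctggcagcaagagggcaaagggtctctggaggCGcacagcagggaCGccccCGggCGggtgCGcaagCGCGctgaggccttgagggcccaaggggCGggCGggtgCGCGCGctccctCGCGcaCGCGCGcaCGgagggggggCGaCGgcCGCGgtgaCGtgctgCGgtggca
Bcl7c: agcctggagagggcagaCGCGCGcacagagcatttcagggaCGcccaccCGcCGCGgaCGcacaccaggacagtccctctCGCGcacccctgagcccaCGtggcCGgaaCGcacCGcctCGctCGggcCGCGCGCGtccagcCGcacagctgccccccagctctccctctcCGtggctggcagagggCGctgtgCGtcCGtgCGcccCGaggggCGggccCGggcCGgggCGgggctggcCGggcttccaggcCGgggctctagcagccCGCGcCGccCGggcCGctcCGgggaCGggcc

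The Bcl7b promoter held 31 CpG dinucleotides and that of Bcl7c held 40, against a median of 7 over 32851 promoters of the same 300 bases. Both also held the E-box hexamer CACGTG, which reads the same on both strands and itself holds a CpG. That hexamer was in 7.15% of all promoters, and among the 9 members with a promoter entry it was in these genes alone. Of the 15 other BAF complex genes with an entry, 1 also held it (Pbrm1, with 35 CpG dinucleotides). Its share among promoters of like CpG density was not counted. A match describes these letters and shows no bound factor.

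Background was defined by 39 olfactory receptor genes, for which ES cells have no expected transcript. A probe set was called above background when its mean and its value on each array exceeded the 95th percentile of these genes, which was 5.59 for the mean. A gene was called by its brightest probe set. By this rule all 10 members were above background, where 68.4% of all genes were. The brightest probe set favours genes with many of them: members had 2.5 each, all genes 1.92 and the receptor genes 1.13. Of genes with 2 or more probe sets 83.6% were above background, and of genes with 1 probe set 53.4%. Bcl7b, Smarcc2 and Arid1b have 1 probe set each. Counted over probe sets, 18 of 25 (72.0%) were above background, against 61.8% of all probe sets with 1 symbol, so the members' share of probe sets lay nearer to the background than their share of genes. The members were chosen by role, and no test sets them against other genes.

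**Figure D1:**
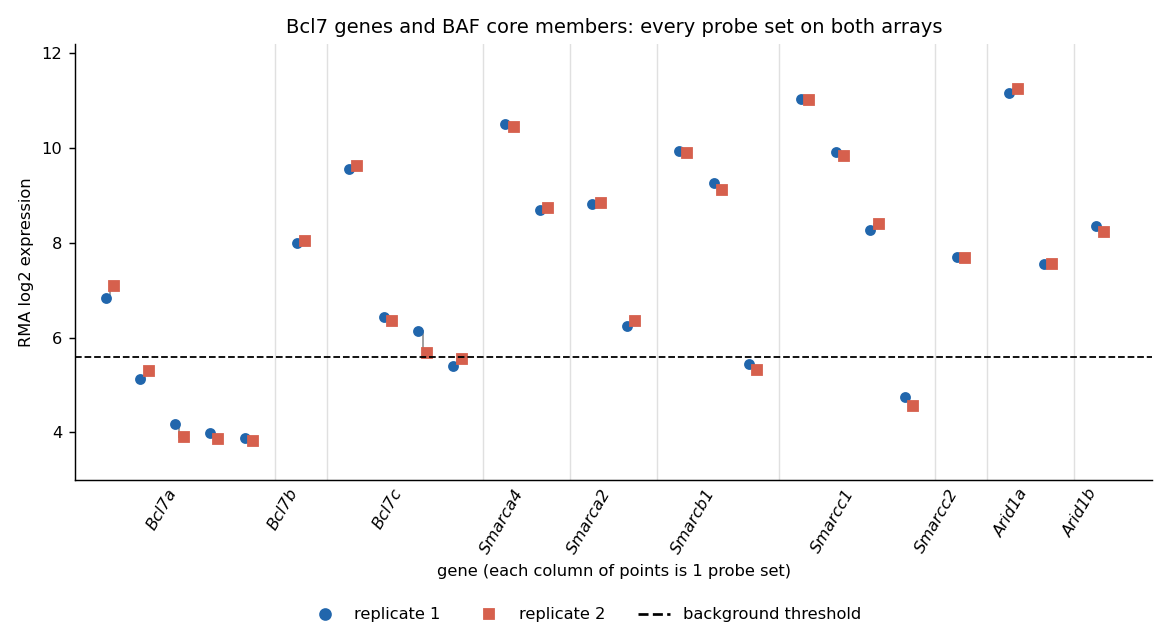
RMA log2 expression (vertical axis) of each of the 25 member probe sets, grouped by gene, on replicate 1 (blue circles) and replicate 2 (red squares), with the background threshold of 5.59 as a dashed line. Each gene has at least 1 probe set above the line, and 4 of 5 probe sets of Bcl7a lie below it.

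Bcl7b was measured by 1 probe set, 1448247_at. Its RMA log2 value was 8.003 on replicate 1 and 8.041 on replicate 2, a mean of 8.02 ± 0.027 (SD, n = 2). Both arrays were well above the threshold, and the mean exceeded it by 2.43 log2 units. The difference between the arrays, 0.038, was smaller than the SD of 0.10 over probe sets of like brightness. The transcript was therefore detected in the culture of the deletion line. The labels do not say whether Bcl7b lies within the deletion. Whether its transcript came from the ES cells or from the feeder cells cannot be told apart on these arrays. In such whole-culture RNA, fewer cells of a type and less RNA per cell cannot be told apart either.

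Of 5 measured genes near Bcl7b, 4 were above background on their brightest probe set, where 68.4% of all genes were. Fkbp6, next beyond Fzd9, was not examined. Baz1b, which encodes a subunit of ISWI-type remodelling complexes, was at 9.82 ± 0.022, with 3 of its 5 probe sets below the threshold, and Tbl2 was at 7.29 ± 0.11 with 4 of 4 above. Vps37d was at 6.48 ± 0.033 and the Wnt receptor gene Fzd9 at 6.26 ± 0.080. Mlxipl, which encodes a glucose-responsive transcription factor, was not above background at 5.08 ± 0.054. The 90th percentile of the receptor genes was 5.07 for the mean, so absence of Mlxipl is not shown.

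Bcl7a, the family member also known from a chromosomal rearrangement in human lymphoma, rested on 1 of its 5 probe sets. On 1428207_at it was at 6.83 on replicate 1 and 7.10 on replicate 2 (mean 6.97 ± 0.19), a difference of 0.27 log2 units where probe sets of like brightness had an SD of 0.13. Its other probe sets were below the threshold on both arrays. Of these, 1428208_at was at 5.13 and 5.30, and the means of the remaining 3 ran from 3.85 to 4.04. When the median of its probe sets stood for the gene, Bcl7a fell to 4.04 and was no longer above background. It was the only member whose call changed under any alternative tried.

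Bcl7c had 3 of 4 probe sets above background. The brightest, 1449523_at, was at 9.56 on replicate 1 and 9.62 on replicate 2 (mean 9.59 ± 0.044). The probe set 1446516_at was at 6.43 and 6.36, and 1443898_at at 6.14 and 5.69. On 1443898_at the arrays differed by -0.45 log2 units, the widest gap of any member probe set and outside the central 95% of probe sets of like brightness (-0.38 to 0.34). The remaining probe set, 1447139_at, was at 5.40 and 5.55, just below the threshold. Transcripts of all 3 BCL7 genes were thus measured in this culture, with 5 of their 10 probe sets (50%) above background, below the 61.8% of all probe sets with 1 symbol.

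Probes differ in affinity, so the values of different genes are set side by side here without an order. Both alternative ATPases of the complex were above background on every probe set. Smarca4, which encodes Brg1, was at 10.50 on replicate 1 and 10.45 on replicate 2 on 1426804_at (mean 10.48 ± 0.037), and at 8.70 and 8.74 on 1426805_at. Smarca2, which encodes Brm, was at 8.83 and 8.84 on 1430526_a_at (mean 8.83 ± 0.0027). Its other probe set, 1452333_at, was at 6.25 and 6.35, still above the threshold. The suffix of 1430526_a_at marks a set that can bind several transcripts of a gene. Without such sets the level of Smarca2 was 6.30 in place of 8.83.

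The scaffold subunits Smarcc1 and Smarcc2, on which the core of the complex assembles, were also both above background. Smarcc1 was at 11.04 on replicate 1 and 11.01 on replicate 2 on 1423416_at (mean 11.02 ± 0.023). Its probe sets 1455246_at (9.87 ± 0.055) and 1423417_at (8.34 ± 0.083) were above the threshold too, and 1459824_at, at 4.75 and 4.55, was not. Smarcc2 has the single probe set 1428382_at, at 7.70 and 7.68 (mean 7.69 ± 0.0087).

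Arid1a and Arid1b encode the mutually exclusive ARID-domain subunits that define canonical BAF. Arid1a was above background on both of its probe sets, at 11.17 on replicate 1 and 11.25 on replicate 2 on 1448709_at (mean 11.21 ± 0.057) and at 7.55 and 7.56 on 1417440_at. Arid1b was at 8.36 and 8.23 on 1455979_at (mean 8.29 ± 0.095). Transcripts of both paralogues were thus detected in the same culture, as were those of both ATPases and both scaffolds. Whether the same cells held both, and what part came from the feeder cells, was not tested.

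Smarcb1 encodes a core subunit that contacts the nucleosome and has no paralogue in the complex. It was at 9.93 on replicate 1 and 9.91 on replicate 2 on 1416045_a_at (mean 9.92 ± 0.019), and at 9.28 and 9.11 on 1435856_x_at. The array difference on the latter, -0.17 log2 units, lay outside the central 95% of probe sets of like brightness (-0.13 to 0.17). Both are sets that can bind more than 1 transcript. The unshared set, 1456938_at, was at 5.44 and 5.33, below the threshold of 5.59. It passed at the lower thresholds of 5.28, which the receptor genes gave when shared sets were left out, and 5.07, their 90th percentile. At the threshold of 5.59 the Smarcb1 call rests on sets named as shared by suffix. That of 1416045_a_at marks, as for Smarca2, several transcripts of a gene.

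No member probe set differed by 1.5-fold (0.585 log2 units) or more between the arrays, where 0.157% of all probe sets with 1 symbol did. Differences ran from -0.45 to 0.27 log2 units, with 11 probe sets higher on replicate 2 and 14 higher on replicate 1. Their median was -0.026, against 0.0086 over all probe sets with 1 symbol. In 16 of 25 the difference was within the SD of probe sets of like brightness (64.0%), against 70.6% of all probe sets with 1 symbol. Those outside the central 95% were 2 of 25 (8%), 1443898_at of Bcl7c and 1435856_x_at of Smarcb1, against 4.95%. By these shares the member probe sets were no closer between the arrays than others.

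**Figure D2:**
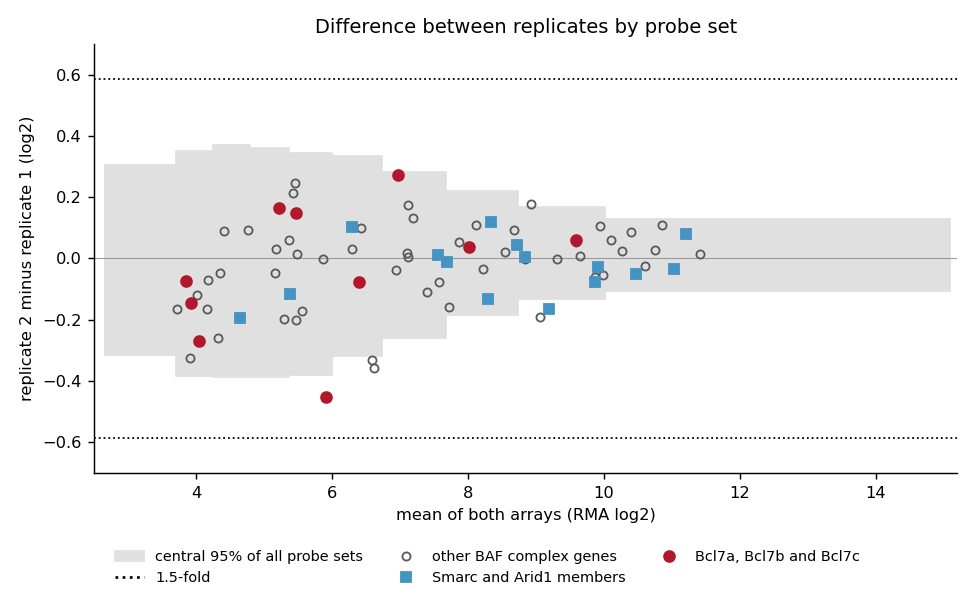
Difference between the arrays (replicate 2 minus replicate 1, log2) against the mean of both arrays for the BCL7 genes (red), the other members (blue squares) and further BAF complex genes (open circles). The grey band is the central 95% of all probe sets in 10 classes of brightness and the dotted lines mark 1.5-fold, which no plotted probe set reached.

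Of the 20 other genes of the BAF, PBAF and ncBAF complexes, all of which had a probe set, 18 (90%) were above background, against 68.4% of all genes. Over probe sets the count was 34 of 52 (65.4%), near the 61.8% of all probe sets with 1 symbol. Among core subunits, Smarcd1 was at 7.13 ± 0.0033, Smarcd2 at 9.87 ± 0.043, Smarcd3, a form known from heart and muscle, at 8.12 ± 0.077, and Smarce1, an HMG-box subunit, at 9.94 ± 0.076 (brightest probe sets, n = 2). All 4 were above background. Ss18, which is fused to SSX genes in human synovial sarcoma, was at 11.41 ± 0.011, and its neuronal counterpart Ss18l1 at 6.95 ± 0.026.

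The actin-like subunits were divided by the threshold. Actl6a was at 10.79 on replicate 1 and 10.90 on replicate 2 on 1416569_at (mean 10.85 ± 0.077), with 3 of 3 probe sets above background. Actl6b, its neuronal counterpart, was at 5.16 and 5.19 on its single probe set (mean 5.18 ± 0.023), below the threshold on both arrays. It passed when the threshold was set at the 90th percentile of the receptor genes, so its absence is not shown.

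Among the PHD-finger subunits, Dpf2 was at 9.99 ± 0.038 with 2 of 2 probe sets above background. Dpf1 and Dpf3, the forms known from neurons and muscle, each had 1 of 2 above. Dpf1 was at 7.12 and 7.26 on 1420530_at and at 5.57 and 5.37 on 1420529_at. Dpf3 was at 7.80 and 7.64 on 1441659_at and at 4.71 and 4.81 on 1450162_at. The calls for Dpf1 and Dpf3 thus depended on the probe set.

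Subunits that define the sister complexes were each above background on the brightest probe set, where 68.4% of all genes were. For PBAF, which carries several bromodomains, Pbrm1 was at 10.60 ± 0.017, Arid2 at 9.65 ± 0.0046, Phf10 at 10.10 ± 0.044 and Brd7 at 9.32 ± 0.00069. All probe sets of Pbrm1 (3), Arid2 (4) and Phf10 (2) were above background, and 1 of 2 for Brd7. For ncBAF, which lacks an ARID subunit, Brd9 was at 8.84 ± 0.00033, Bicra at 7.40 ± 0.078 and Bicral at 8.68 ± 0.065. The single probe sets of Brd9 and Bicra were above background, and 3 of 4 for Bicral, whose set 1443567_at was at 4.07 and 3.74.

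The BCL11 zinc-finger proteins, accessory subunits known from neurons and lymphocytes, had few probe sets above background, where 61.8% of all probe sets with 1 symbol were. Bcl11a was above it on 1 of 7 probe sets, at 7.03 on replicate 1 and 7.20 on replicate 2 on 1447335_x_at, a shared set. Its other sets had means from 3.72 to 5.49. Bcl11b was above on 0 of 4, and its brightest, 1435227_at, exceeded the threshold on replicate 1 (5.65) and not on replicate 2 (5.48). Its call changed with the 90th percentile, with unshared probe sets, on replicate 1 alone and where the median probe set stood for each gene. Each of these placed Bcl11b above background, and the last also took Bcl11a below it.

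**Figure D3:**
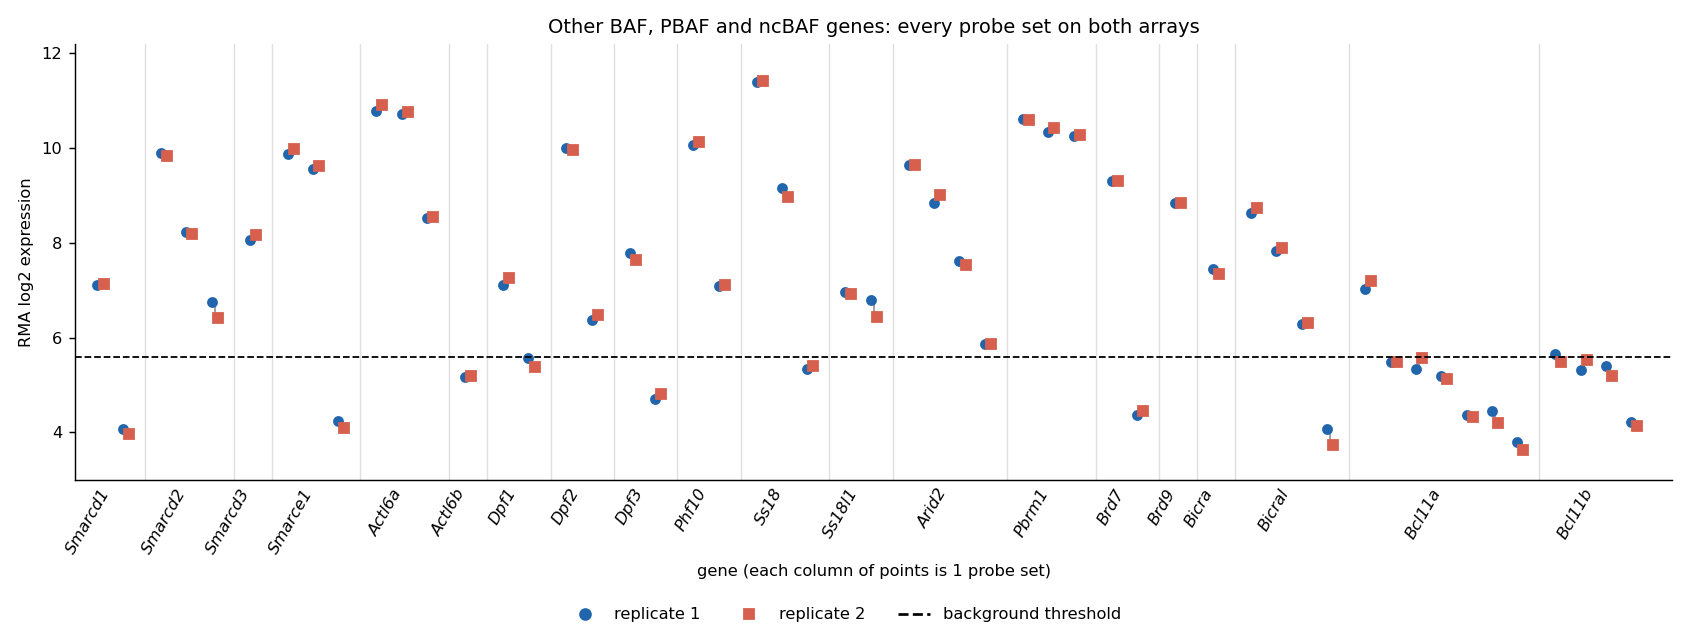
RMA log2 expression (vertical axis) of the 52 probe sets of the 20 other BAF, PBAF and ncBAF genes on replicate 1 (blue circles) and replicate 2 (red squares), with the background threshold of 5.59 as a dashed line. Actl6b and Bcl11b have no probe set called above background, and Bcl11a has 1 of 7.

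Set out by the cell state they are known from, the paralogues were counted as follows. Of 8 genes used in ES cell BAF (Smarca4, Smarcc1, Arid1a, Smarcd1, Actl6a, Dpf2, Phf10 and Ss18), 8 were above background, with 17 of 20 probe sets. Phf10 is also the gene named above with PBAF. Of 8 counterparts more typical of differentiated cells (Smarca2, Smarcc2, Arid1b, Smarcd3, Actl6b, Dpf1, Dpf3 and Ss18l1), 7 were, with 9 of 12 probe sets. Actl6b, which has 1 probe set, was the exception. Probe sets per gene were 2.5 in the first list and 1.5 in the second. Genes with 1 probe set numbered 0 in the first list and 4 in the second. In all genes the shares were 68.4% of genes and 61.8% of probe sets. They were 83.6% of genes with 2 or more probe sets and 53.4% of genes with 1. The gene counts of the 2 lists are therefore not on an equal footing.

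The culture held transcripts of ES cells and of fibroblasts. All 8 ES cell markers were above background, with means from 9.76 (Esrrb) to 14.09 (Dppa5a). So were all 9 measured fibroblast markers, with means from 8.98 (Pdgfra) to 14.87 (Col1a2). The same rule called 68.4% of all genes, and 83.6% of genes with 2 or more probe sets. The mean over each list was 12.09 on replicate 1 and 12.10 on replicate 2 for ES cells, and 12.49 and 12.50 for fibroblasts. Of neuronal markers 2 of 6 were above background (Stmn2 at 11.56 ± 0.034 and Rbfox3 at 6.77 ± 0.088). Snap25 (3.13 ± 0.039), Slc17a6 (3.96 ± 0.080) and Syt1 (5.41 ± 0.038) were below the threshold on both arrays. Gad1 (5.58 ± 0.15) was just below it in the mean and above it on replicate 2. Of muscle markers 2 of 6 were (Ckm at 6.26 ± 0.18 and Actn2 at 5.91 ± 0.23), and Myh6, Tnnt2, Myod1 and Ryr2 were not. The part of fibroblast RNA in the values of Smarca2, Smarcc2, Arid1b and the other subunits was not tested.

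The calls were also counted by the kind of sequence entry that the annotation gives for each probe set, a split chosen after the values were seen. Of the 5 member probe sets annotated with a RefSeq mRNA, 5 were above background, and of the 17 annotated with another GenBank entry, 10 were (58.8%), as were the 3 with no entry listed. Over all genes the shares were 65.6%, 60.6% and 65.7%, so the share for other GenBank entries was near that of the array. The 7 member probe sets below the threshold belonged to Bcl7a (4), Bcl7c (1), Smarcb1 (1) and Smarcc1 (1), and each was annotated with another GenBank entry. In the other BAF complex genes the counts were 8 of 12, 21 of 34 and 5 of 6.

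CpG dinucleotides were also counted in the promoters, a feature that the choice of genes did not use. All 9 members with an entry in the RefSeq promoter table had at least 22 CpG dinucleotides in 300 bases, up to 48 for Smarcc2, and the promoter of Bcl7a was not analysed here. The upper quartile of all promoters began at 20, counted over promoter entries that include genes not on the array. Of the 15 other BAF complex genes with an entry, 12 reached 20. Over the array, by the highest entry of each gene, 6641 genes reached 20 and 7728 did not. The trait is thus common and not particular to the members. Of the genes that reached 20, 87.7% were above background, against 54.0% of the others. The correspondence was not strict within the complex. Smarcd2 had 4 CpG dinucleotides with 3 of 3 probe sets above background, and Actl6b had 23 with its probe set below the threshold.

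**Figure D4:**
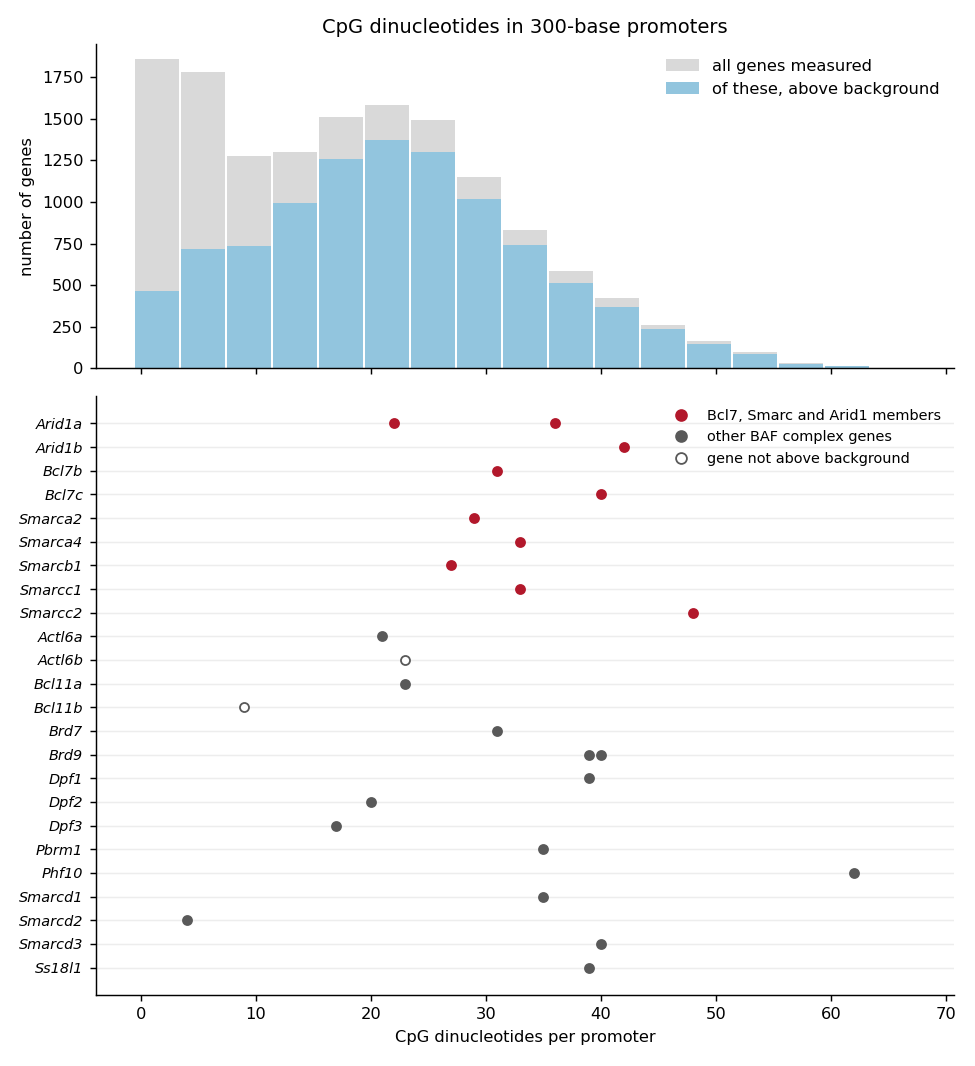
Upper panel: number of genes by CpG dinucleotides in their 300-base promoter (highest entry of each gene), with the number above background in blue. Lower panel: CpG dinucleotides in each promoter entry of the members (red) and of other BAF complex genes (grey), open where the gene was not above background; the members lie between 22 and 48.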

How the data were processed

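The deposited values are log2 expression values, which the authors computed with RMA, robust multi-array averaging, as the submitters' processing notes state. Neither the RMA version nor the set of arrays it ran on is given in the sources used here. The method subtracts background, quantile-normalizes and summarises the probes of each set. It hides changes common to most genes and gives no detection call. Medians were 6.01 on both arrays. Of 45101 probe sets, 34958 had 1 gene symbol in the platform annotation, 932 had several and were not named, and 9211 had none. Columns not used numbered 0. Precision is limited by the number of arrays.

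Probe sets were called against 39 olfactory receptor genes (95th percentile, mean and each array), and replicates were compared by the difference of log2 values. Every member, every other BAF complex gene and 5 genes near Bcl7b were named. The members and lists were chosen with earlier results of these data known. The promoter and probe set design counts were chosen after the values were seen. Actb was left out of the BAF list. Probe sets called shared end in _a_at, _s_at or _x_at. Classes of like brightness are 10 equal parts of all probe sets by mean. Alternatives were the 90th and 99th percentiles, vomeronasal and taste receptors, the median of all probe sets, unshared probe sets, single receptor probe sets, each array alone, centring and loess (fraction 0.3). The calling and difference steps were tested on simulated data. Silent genes there were drawn from the receptor values that set the threshold, and bright genes lay well above it. The simulation therefore does not show how genes near the threshold are called. A comparison of protein sequences that had been planned was not run. Python 3.11.15, pandas 2.3.3 and statsmodels 0.14.6 were used.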

Additional observations from a re-analysis of the deposited data

How the results depend on the processing

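The 32 alternative values covered the counts and the median replicate difference. Counts stayed within 1.5-fold of those reported, a wide allowance, and the count of 0 stayed at 0. The count of members above background stayed at 10 of 10 except with the median of all probe sets (9, without Bcl7a). Member probe sets above background ranged from 17 of 25 (99th percentile, or vomeronasal and taste receptors) to 21 of 25 at the 90th, with 17 of 22 among unshared sets, and other BAF complex genes from 18 to 20, the latter with the 90th percentile. Each array alone gave 10 members, 18 member probe sets and 18 to 19 other genes. The median replicate difference, reported as -0.026, ranged from -0.044 after loess to -0.0042 with probe sets above the threshold. A median over probe sets can only equal or lower the brightest. It changed the 7 members with several sets by -3.44 (Bcl7c) to -0.73 (Smarcb1), the 3 others having 1 set each, and unshared sets changed Smarca2 by -2.53 and Smarcb1 by -4.54. Leaving out either array moved each member's level by less than its SD, as is fixed by construction. The planned protein alignment was not run. No paired analysis was possible because the study has a single group. Near the threshold, weakly expressed and silent genes cannot be separated by signal over background.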

Other observations

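Stmn2, a microtubule regulator listed here as a neuronal marker, was above background on both of its probe sets (11.56 ± 0.034 and 10.46 ± 0.013, n = 2), while 4 of the 6 neuronal markers were not above background. Ckm, a muscle enzyme, was above background on both of its probe sets (6.26 ± 0.18 and 5.99 ± 0.28), and on the latter the arrays differed by -0.39 log2 units. These markers are outside the BAF complex, and which cells of the culture their transcripts came from was not resolved.

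Among probe sets of the BAF complex outside the members, 4 of 52 had a replicate difference outside the central 95% of probe sets of like brightness. The widest was -0.36 log2 units, on 1447700_x_at of Ss18l1 (6.79 on replicate 1 and 6.44 on replicate 2), while 1436911_at of the same gene differed by -0.036.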
